A study of Mus musculus with 4 samples.

Results

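Distal regions that were strongly accessible in microglia of wild-type mice and had no peak at all in microglia lacking IRF8 were examined: 1823 of 35270 strong distal regions. They were chosen by presence in ATAC-seq peak lists. All distinct autosomal peaks with a pileup of at least 0.5 per 1000000 tags (strong peaks) were merged over 4 libraries into 54106 regions. A member was overlapped by such a peak in both WT lists and by no deposited row of any strength in either IRF8KO list. It also lay more than 1 kb from every transcription start site (TSS) of a protein-coding or long non-coding gene. Pileup is the depth of extended transposase cut sites at a peak's summit, and its value per 1000000 tags of the library, the scaled pileup, is used throughout. The members made up 5.17% of all strong distal regions. The converse rule, strong in both IRF8KO lists and without a row in either WT list, gave 730 regions or 2.07%. Both counts follow from the rule and carry no test.

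The data came from 4 libraries of untreated, flow-sorted microglia from brains of 3-month-old C57BL/6 mice. The genotype was labelled WT in 2 libraries and IRF8KO in 2, with replicates 1 and 2 in each. The labels do not name the deleted part of Irf8 or the cells that lack it, and they do not say whether the replicates came from separate mice. Any p-value therefore measures only the spread between these libraries.

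IRF8 is a transcription factor of myeloid cells that binds DNA weakly alone and more firmly beside a partner. At ETS-IRF composite elements it binds next to PU.1, an ETS family factor present in all macrophages, with the ETS core GGAA followed after a short gap by the IRF core GAAA. IRF factors also bind interferon-stimulated response elements (ISREs), which carry repeated GAAA cores. Microglia are the resident macrophages of the brain, and they depend on PU.1 and IRF8 for their development and on SALL1 for their identity.

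The sequences of the members show what many of them share. An ETS-IRF element was searched as GGAANNGAAA, on both strands, in the 201 bases centred on the member's summit. The windows below belong to 7 of the 8 members with the highest lower WT value among those that hold the element. Each is named by the nearest protein-coding gene and gives the plus strand of GRCm38 from 5′ to 3′. Capitals mark the element. A match on the minus strand reads TTTCNNTTCC.
Lbh (chr17:72903935-72904135): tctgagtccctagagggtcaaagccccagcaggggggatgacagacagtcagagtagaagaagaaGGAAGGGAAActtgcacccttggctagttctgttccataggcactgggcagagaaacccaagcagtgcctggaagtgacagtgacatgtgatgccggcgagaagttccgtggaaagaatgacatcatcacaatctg
Osbpl8 (chr10:111159870-111160070): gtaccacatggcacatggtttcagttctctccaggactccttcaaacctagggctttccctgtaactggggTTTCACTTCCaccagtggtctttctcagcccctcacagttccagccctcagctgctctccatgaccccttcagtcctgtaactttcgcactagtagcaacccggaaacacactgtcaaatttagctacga
Myc (chr15:61999738-61999938): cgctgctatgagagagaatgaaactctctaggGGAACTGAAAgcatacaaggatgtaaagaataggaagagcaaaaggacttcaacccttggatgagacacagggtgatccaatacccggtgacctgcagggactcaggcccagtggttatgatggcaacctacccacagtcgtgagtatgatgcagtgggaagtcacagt
Csgalnact2 (chr6:118141045-118141245): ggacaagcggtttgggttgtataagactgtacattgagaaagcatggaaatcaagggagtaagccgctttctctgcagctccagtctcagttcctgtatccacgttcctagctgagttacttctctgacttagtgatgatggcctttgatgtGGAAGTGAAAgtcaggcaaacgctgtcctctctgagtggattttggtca
5330417H12Rik (chr7:107683747-107683947): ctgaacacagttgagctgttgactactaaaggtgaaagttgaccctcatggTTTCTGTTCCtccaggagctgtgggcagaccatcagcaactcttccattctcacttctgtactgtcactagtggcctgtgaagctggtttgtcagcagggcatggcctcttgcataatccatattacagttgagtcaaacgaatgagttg
Il12b (chr11:44382371-44382571): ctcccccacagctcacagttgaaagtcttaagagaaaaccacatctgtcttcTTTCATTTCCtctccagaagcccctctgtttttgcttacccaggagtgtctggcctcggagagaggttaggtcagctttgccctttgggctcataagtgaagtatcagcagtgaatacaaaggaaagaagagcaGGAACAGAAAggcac
Sall1 (chr8:89404350-89404550): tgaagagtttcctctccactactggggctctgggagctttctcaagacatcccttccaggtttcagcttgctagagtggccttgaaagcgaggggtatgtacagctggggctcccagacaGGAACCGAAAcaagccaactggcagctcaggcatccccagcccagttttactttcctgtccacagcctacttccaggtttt

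The Osbpl8 and Csgalnact2 windows held the same 10 bases, GGAAGTGAAA, on opposite strands. The 5330417H12Rik window held GGAACAGAAA on the minus strand. The Il12b window held 2 elements, GGAAATGAAA on the minus strand and GGAACAGAAA on the plus strand. The Sall1 window held GGAACCGAAA. The windows other than Sall1 ranked between 3 and 14 of all members, and the Sall1 window ranked 27.

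The next windows belong to genes of the gene lists used below, 2 of macrophage transcription factors and 1 of monocyte markers. Batf3 encodes an AP-1 family factor that partners with IRF proteins, Plac8 is a monocyte marker, and Mef2c encodes a transcription factor of microglia.
Batf3 (chr1:191110015-191110215): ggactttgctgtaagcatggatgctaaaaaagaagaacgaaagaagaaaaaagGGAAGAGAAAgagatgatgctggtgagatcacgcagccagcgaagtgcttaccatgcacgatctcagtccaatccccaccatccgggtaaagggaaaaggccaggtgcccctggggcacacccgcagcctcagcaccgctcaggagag
Plac8 (chr5:100585145-100585345): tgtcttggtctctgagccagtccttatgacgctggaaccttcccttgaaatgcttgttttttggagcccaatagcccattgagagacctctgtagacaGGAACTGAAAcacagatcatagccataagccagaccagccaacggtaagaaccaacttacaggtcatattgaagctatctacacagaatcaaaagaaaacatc
Mef2c (chr13:83604774-83604974): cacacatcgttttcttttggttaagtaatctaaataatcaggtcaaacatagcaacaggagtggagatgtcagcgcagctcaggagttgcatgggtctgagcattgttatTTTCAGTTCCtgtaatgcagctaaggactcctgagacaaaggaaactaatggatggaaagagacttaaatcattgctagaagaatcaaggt

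The windows above were picked because they hold the element, which 1323 of the 1823 members lacked. The 2 strongest members of all, in introns of Magi1 and Phactr2, held neither GGAANNGAAA nor the reversed order GAAANNGGAA nor the ISRE form GAAANNGAAA, and their windows have no capitals.
Magi1 (chr6:94159350-94159550): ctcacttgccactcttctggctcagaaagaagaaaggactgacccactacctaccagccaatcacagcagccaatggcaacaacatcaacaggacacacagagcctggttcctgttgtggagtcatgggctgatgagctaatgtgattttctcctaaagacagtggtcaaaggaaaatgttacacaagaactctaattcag
Phactr2 (chr10:13438554-13438754): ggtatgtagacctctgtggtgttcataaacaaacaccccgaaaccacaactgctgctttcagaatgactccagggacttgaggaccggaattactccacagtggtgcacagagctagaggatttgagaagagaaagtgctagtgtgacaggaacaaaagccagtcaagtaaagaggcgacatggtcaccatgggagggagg

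The accessibility that chose the members is a description. In WT replicate 1 their scaled pileup ran from 0.511 through a median of 0.937 to 8.58, and in WT replicate 2 from 0.511 through 0.736 to 6.42. Most members sat near the lower end: 472 had at least 1 in both libraries, 60 at least 2 and 16 at least 3. WT replicate 1 was the higher library at 1490 of 1823 members, with a median ratio to replicate 2 of 1.24. The same ratio was 1.27 over the 10955 distal regions strong in all 4 libraries. The weakest members had a lower WT value of 0.511, shared by 45 of them, and the 110 regions closest under the threshold had 0.491. The member nearest to a TSS lay 1002 bp away, and the nearest region left out by that rule 988 bp.

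The IRF8KO lists hold called peaks only, so no IRF8KO value exists for a member. At the depth of the IRF8KO libraries, the lower WT value of every member corresponds to a pileup of at least 40.3 in replicate 1 and 33.9 in replicate 2. The lowest pileups listed anywhere in those libraries were 8 and 7. The calling limit depends on local background, and 95% of the rows near the p cutoff had a pileup of at most 12 and 17. The rule left out 4200 distal regions that were strong in both WT libraries and had only weak IRF8KO rows, with a median of 0.317 for the larger of the IRF8KO values. An IRF8KO row lay within 500 bp of 330 members (18.1%).

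Depth followed genotype: the WT libraries held 46948938 and 48896408 tags, and the IRF8KO libraries 78793572 and 66224648. WT replicates 1 and 2 had 47653 and 40416 strong peaks, and IRF8KO replicates 1 and 2 had 28539 and 40961. IRF8KO replicate 1 stood lower than the others, with a median scaled pileup of 1.02 at distal regions of all 4 libraries, against 1.66 and 1.29 in WT and 1.60 in IRF8KO replicate 2. The rule without IRF8KO replicate 1 gave 2062 regions, and 2073 without WT replicate 1. It gave 2803 without IRF8KO replicate 2 and 3131 without WT replicate 2. The highest peak at the promoter of Irf8 itself had 2.07 and 1.49 in WT and 0.863 and 1.36 in IRF8KO, and an accessible promoter does not check a deletion. Of 24 homeostatic microglia genes, a strong promoter peak was found at 24 and 23 in WT and at 21 and 22 in IRF8KO. Sall1 and Sparc lacked one in both IRF8KO libraries. Of 8 border macrophage genes, 2 had a strong promoter peak in each WT library and 6 in each IRF8KO library. Lyve1 and F13a1 had none in any library, and Mrc1, Pf4, Cd163 and Ms4a7 had one in the IRF8KO libraries only. Of 7 oligodendrocyte genes, 3 and 4 had a strong promoter peak in WT and 0 and 1 in IRF8KO, with Mag, Sox10 and Olig2 lacking one in every library. Other lists also split by genotype, with more strong promoter peaks in both WT libraries: 2 of 8 monocyte genes in each WT library and 1 in each IRF8KO library, 4 and 3 of 8 endothelial genes, and 1 and 0 of 8 neuron genes. Of 8 neutrophil genes, 1 had one in WT replicate 1 and 0 in the other libraries. Astrocyte and B or T cell genes had 1 of 8 in every library. The part of these cell markers in the results was not tested. Members lay at genes of several of these lists: 5 at endothelial genes, 3 at a neuron gene, 2 at astrocyte genes, and 1 each at a monocyte and a border macrophage gene. None lay at the oligodendrocyte, neutrophil and B or T cell genes.

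The strongest members each stood by a different gene. The first lay in an intron of Magi1, which encodes a scaffold of cell junctions (chr6:94159256-94159943). Its scaled pileup was 8.58 in WT replicate 1 and 6.42 in WT replicate 2. The second lay in an intron of Phactr2, a regulator of actin and protein phosphatase 1 (chr10:13438430-13438809), with 5.69 and 4.64. Lbh, a transcriptional cofactor, had a member 14 kb from its TSS (chr17:72903800-72904314) with 6.07 and 4.62. These 3 were the only members whose lower value passed that of Tifa. Tifa encodes an adaptor of innate NF-kB signalling, and its intronic member (chr3:127796329-127796656) had 5.52 and 4.19. A weaker member followed in the same gene, with 0.745 and 0.818.

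**Figure D1:**
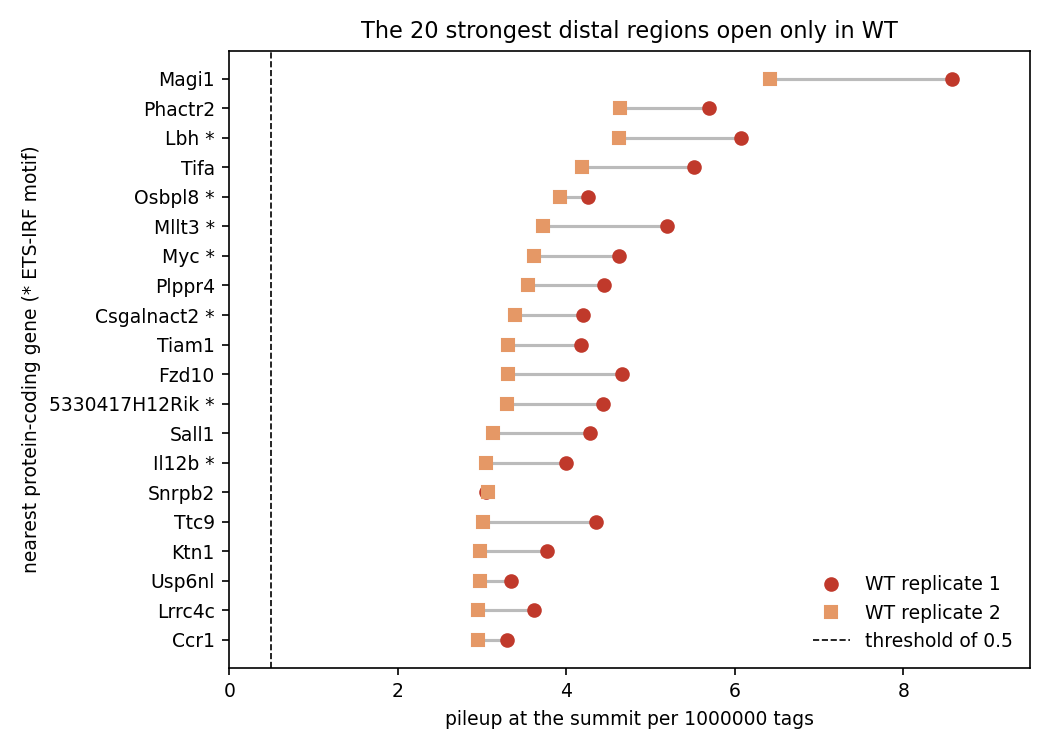
Scaled pileup (horizontal axis, pileup at the summit per 1000000 tags) of the 20 strongest members in WT replicate 1 (circles) and WT replicate 2 (squares), named by the nearest protein-coding gene, with * for an ETS-IRF element. The dashed line is the threshold of 0.5. Replicate 1 is the higher at every one of them but the Snrpb2 member, and no IRF8KO value is drawn because those lists hold no row there.

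Below these, the member 12.2 kb from Myc, a regulator of growth and proliferation, had 4.62 and 3.62 (chr15:61999629-62000012). The member 17.4 kb from Il12b, which encodes the subunit that interleukins 12 and 23 share, had 4 and 3.05 (chr11:44382089-44382629). The member near Ccr1, a chemokine receptor of myeloid cells, had 3.30 and 2.95 (chr9:123935422-123935818). This last one stood out less from its local background, on which the calling limit also depends. Its fold enrichment over that background, as the authors' peak caller gave it, was 4.25 and 7.79, against 14 to 34 at the other 19. The rest of the 20 were nearest to Osbpl8, Mllt3, Plppr4, Csgalnact2, Tiam1, Fzd10, 5330417H12Rik, Sall1, Snrpb2, Ttc9, Ktn1, Usp6nl and Lrrc4c. Of the 20, 11 lay between genes, 7 in introns and 2 in untranslated or non-coding exons. The element was found in 7 of the 20, and any of the ETS-IRF, reversed and ISRE forms in 9.

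Across all 1823 members, 500 held an ETS-IRF element within the window, a share of 27.4% (95% Wilson interval 25.4 to 29.5). The share was 5.83% (5.41 to 6.29) in 10955 distal regions strong in all 4 libraries and 2.60% (1.67 to 4.03) in the 730 IRF8KO-only regions. It was 7.44% over all 35270 strong distal regions. These intervals cover counting error only, and regions are not replicates, so no test over regions was made. The element was not used to choose the members. Seen from the other side, 2625 strong distal regions held the element, and 19.0% of them were members. Of the strong distal regions with a TGANTCA (AP-1) match 4.02% were members, and of those with a GAGGAAGT (PU.1) match 3.47%, both below the 5.17% that members made up overall. The share was 8.54% for the ISRE form and 5.31% for the reversed order.

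A gap of 2 bases between the cores stood apart from other gaps. With GGAA first, a spacer of 2 bases gave 27.4% of member windows, and each of 12 other spacers from 0 to 12 gave between 2.19% and 4%. In regions of all 4 libraries the spacer of 2 gave 5.83% and the others 2.11% to 3.82%. Order differed as well. GAAANNGGAA, with the IRF core first, was found in 9.38% of member windows and in 10.3% of the windows of all 4 libraries, so the members did not stand above the shared regions.

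**Figure D2:**
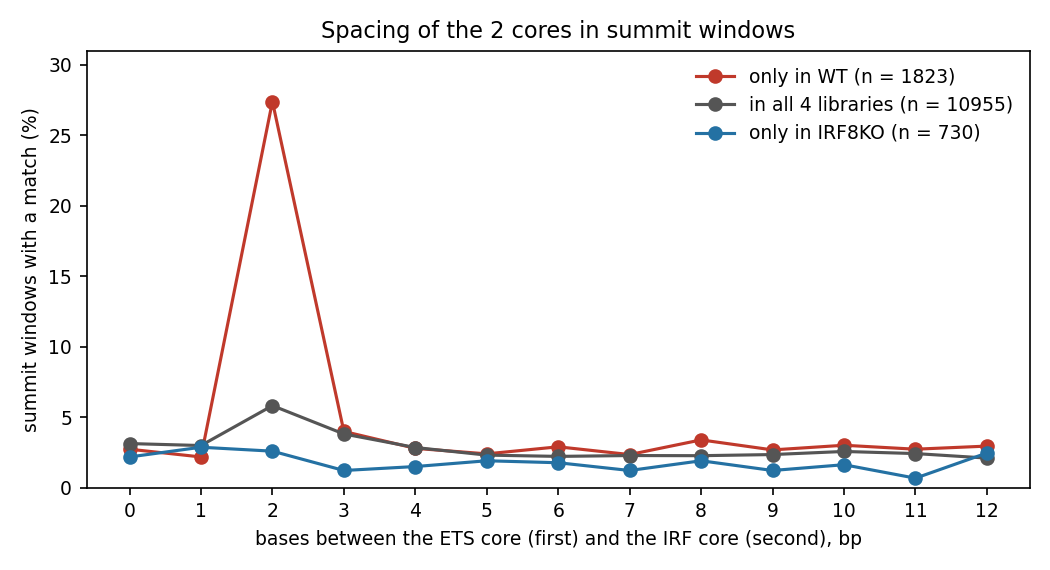
Share of 201-bp summit windows (vertical axis, %) that hold the ETS core followed by the IRF core at each spacer from 0 to 12 bp (horizontal axis), for members, regions of all 4 libraries and IRF8KO-only regions. Member windows stand apart at a spacer of 2 bp, with 27.4%, and lie between 2.19% and 4% elsewhere.

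The element lay close to the summit. In members with one in the window, the median distance from the summit to the nearest element was 28.0 bp, and 46.0% had it within 25 bp. In regions of all 4 libraries with an element the median was 44.5 bp and 21.9% had it within 25 bp. Out to 1000 bp, the 50-bp bins on either side of the summit held an element in 10.1% and 12.1% of members. Bins beyond 500 bp held one in 0.510% on average, and in 0.570% in regions of all 4 libraries.

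**Figure D3:**
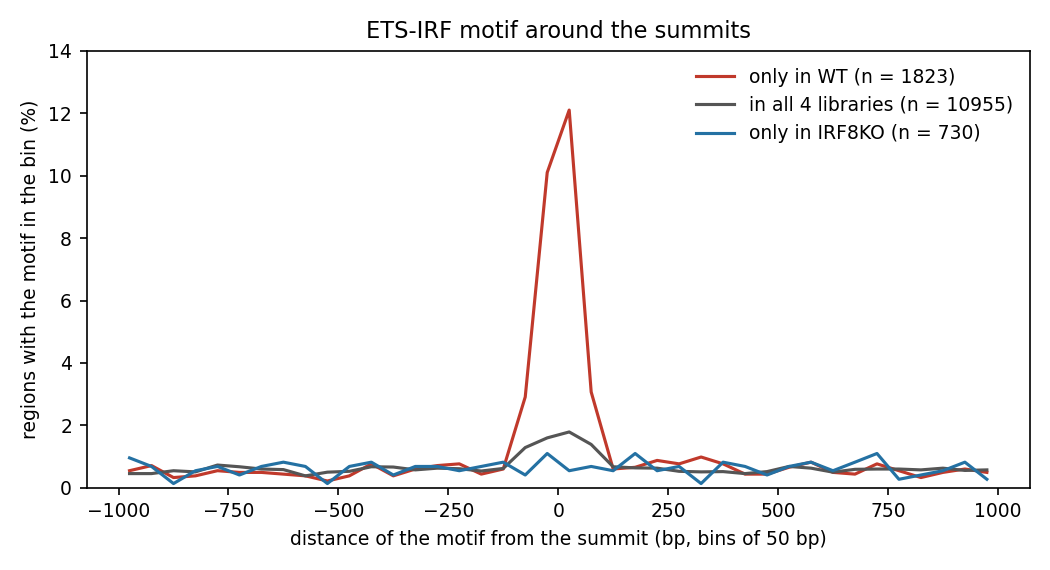
Share of regions with an ETS-IRF element in each 50-bp bin (vertical axis, %) by distance from the summit (horizontal axis, bp), for members, regions of all 4 libraries and IRF8KO-only regions. The members reach 10.1% and 12.1% in the bins beside the summit and lie near the other sets beyond 100 bp.

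Among the 524 elements in member windows, the free bases were most often GT (136 elements, 26.0%), followed by AT (83), CT (71), CA (62) and GA (57). A T stood before the GAAA core in 58.0% of elements in members and 53.9% of those in regions of all 4 libraries. Most windows held 1 element: 483 of 500 did, 16 held 2, and 1 held 9.

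The share with an element differed little among members of moderate and high accessibility. With members put into 4 groups of near equal size by their lower WT value, it was 20% (16.5 to 23.9) in the weakest group, then 29.2%, 29.2% and 31.4% (27.3 to 35.8) in the strongest. Members with the element had median scaled pileups of 0.958 and 0.777 in the WT libraries, and those without had 0.916 and 0.716. The median TSS distance was 12762 bp with the element and 10196 bp without.

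The share with an element also differed with what the IRF8KO lists held, in groups formed after the data were seen. Among distal regions strong in both WT libraries, the share was 27.4% in the members. It was 18.7% (16.5 to 21.1) in 1091 regions with a weak row in 1 IRF8KO list and none in the other, and 11.1% (10.1 to 12.3) in 3109 regions with weak rows in both. Regions strong in 1 IRF8KO list had 6.61% of 3931, and those strong in both 5.83% of 10955. The intervals cover counting error only, and no test over these groups was made. The reversed order stayed between 9.38% and 10.9% over the same 5 groups, and the ISRE form ran from 7.13% in members to 4.11% where both IRF8KO lists were strong. PU.1 matches went the other way, from 8.94% in members to 16.2%. The median lower WT value lay between 0.682 and 0.736 in the first 4 groups and was 1.29 in the last.

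**Figure D4:**
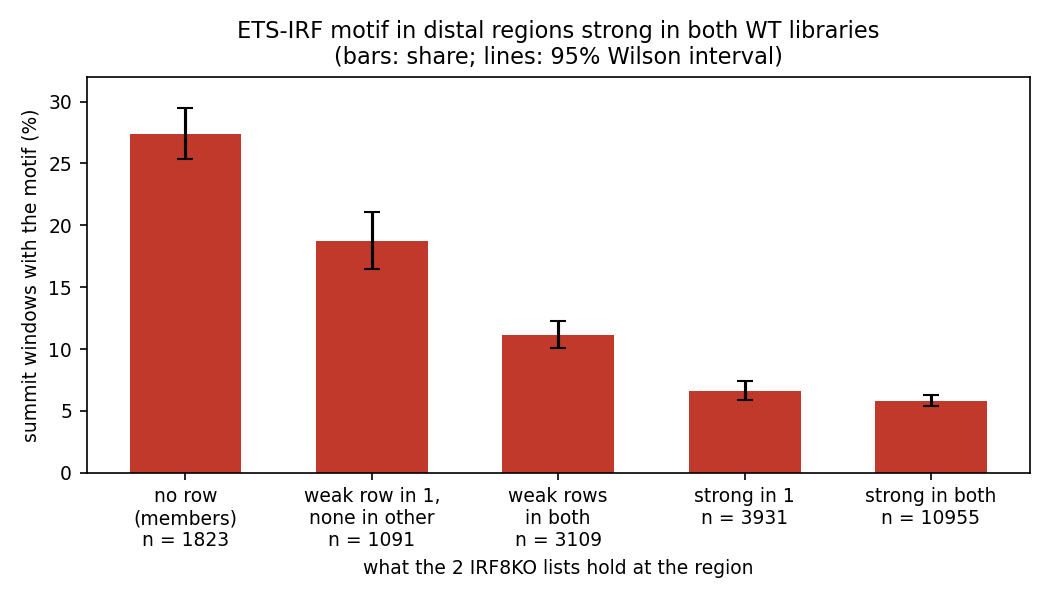
Share of summit windows with an ETS-IRF element (vertical axis, %; lines are 95% Wilson intervals) in distal regions strong in both WT libraries, grouped by what the 2 IRF8KO lists hold there (horizontal axis). The share steps from 27.4% in members, with no IRF8KO row, to 5.83% in regions strong in both IRF8KO lists.

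Per library, the same measure was taken over each library's own strong distal peaks. The element was found in 8.63% of 28366 peaks in WT replicate 1 and 9.05% of 22846 in WT replicate 2. It was found in 4.66% of 14901 peaks in IRF8KO replicate 1 and 4.36% of 24423 in IRF8KO replicate 2. Both WT libraries lay above both IRF8KO libraries. The mean WT share was 8.84% ± 0.293 and the mean IRF8KO share 4.51% ± 0.207 (SD over 2 libraries, n = 2). They lay 4.33 percentage points apart, more than either SD. The exact two-sided permutation p was 0.333, the smallest that 2 against 2 libraries allow. Members are part of the WT peaks. Without the peaks of WT-only and IRF8KO-only regions, a comparison added after the data were seen, the shares were 7.35% and 7.43% in WT and 4.78% and 4.42% in IRF8KO, a difference of 2.79 points (exact permutation p 0.333).

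**Figure D5:**
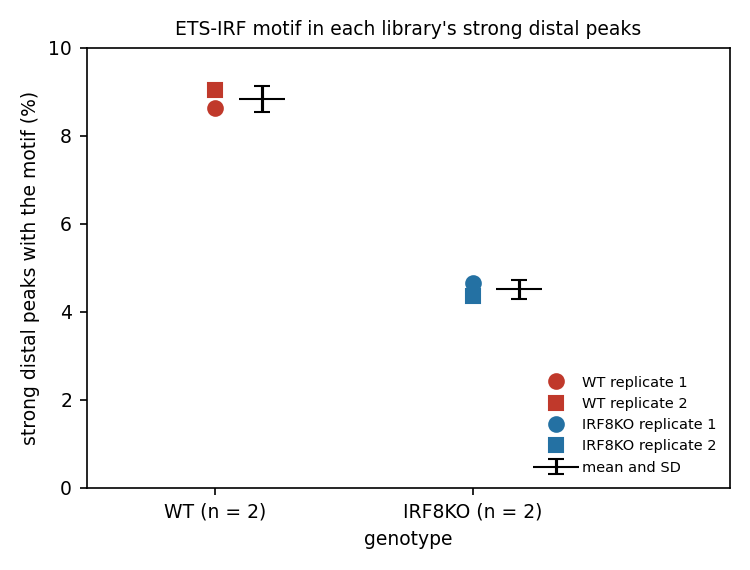
Share of each library's strong distal peaks with an ETS-IRF element (vertical axis, %) by genotype, with 1 symbol per library and the mean and SD of 2 libraries beside them. The WT libraries sit at 8.63% and 9.05% and the IRF8KO libraries at 4.66% and 4.36%.

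Of the other motifs, the ISRE form was found in 7.13% of members (6.04 to 8.40) against 4.11% (3.75 to 4.50) in regions of all 4 libraries. These intervals, too, cover counting error only. GAGGAAGT, a PU.1 motif, was found in 8.94% of members, 16.2% of shared regions and 6.44% of IRF8KO-only regions. TGANTCA (AP-1) was found in 8.83% and 12.1%, TTGCNNAA (CEBP) in 8.01% and 12.6%, and TGTGGTT (RUNX) in 5.16% and 8.20%. The IRF8KO-only regions had 28.8% with AP-1, 28.2% with CEBP and 15.2% with RUNX. TGCTGAC (MAF) was found in 4.17% of members, 7.86% of shared regions and 9.45% of IRF8KO-only regions. The CTCF motif, which marks insulators, was found in 0.768% of members, 6.20% of shared regions and 0.822% of IRF8KO-only regions. TTCNNNGAA (STAT) stood at 6.36%, 6.13% and 5.62% in the same 3 sets. Any of the ETS-IRF, reversed and ISRE forms was found in 715 members (39.2%), in 18.5% of shared regions and in 9.45% of IRF8KO-only regions. Base composition differed slightly, with a median GC of 47.8% in member windows and 50.2% in shared ones, and its part in these shares was not tested.

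By annotation, 1032 members lay in introns, 662 between genes, 84 in untranslated or non-coding exons and 45 in coding exons. Introns held 56.6% of members and 55.1% of all strong distal regions. Member length ran from 82 to 963 bp with a median of 278 bp. The median was 361 bp in IRF8KO-only regions and 456 bp in shared regions, whose median best scaled pileup was also higher (1.99 against 0.958). A shared region merges peaks of 4 lists and a member those of 2, so length partly follows from the rule. Members lay a median of 10854 bp from a TSS, compared with 10841 bp for all strong distal regions, 9734 bp for shared regions and 11296 bp for IRF8KO-only regions. Members occurred on all 19 autosomes. Another member lay within 10 kb of 302 members (16.6%). A region strong in all 4 libraries, at a TSS or distal, lay within 10 kb of 47.2%.

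The nearest protein-coding TSS held a strong peak in all 4 libraries for 761 members, or 41.7% (39.5 to 44.0). This share was 47.8% (46.9 to 48.8) for regions of all 4 libraries, 42.6% for IRF8KO-only regions and 43.2% for all strong distal regions. No row in any library was listed at the nearest TSS of 27% of members and of 27.2% of all strong distal regions, and that TSS can be one of an alternative transcript. The promoter was itself WT-only for 8 members (0.439%), near the 0.332% of all strong distal regions. Of the 8, 2 were near Cd82, which encodes a membrane tetraspanin, and 1 each near Mef2c, Mettl21a, Pmp22, Ppa2, Rasgrf2 and Trappc12. WT-only describes the nearest TSS alone: another TSS of Mef2c had a strong peak in both IRF8KO libraries. A promoter peak shows accessibility and not transcription, and the nearest gene need not be the one a distal region acts on.

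The members were spread over 1388 nearest protein-coding genes, of which 1083 had 1 member, 220 had 2 and 85 had 3 or more. Sall1, the zinc finger factor that maintains microglial identity, had 7, all between genes. The strongest lay 349 kb from its TSS (chr8:89392719-89393144) with scaled pileups of 4.28 and 3.13 in WT replicates 1 and 2. The next lay 360 kb away (chr8:89404170-89404649) with 3.13 and 2.58, and is the one shown above with GGAACCGAAA. The other five had between 0.895 and 1.43 in replicate 1 and between 0.614 and 1.02 in replicate 2, at 11.7 to 525 kb. Of the 7, 3 held an ETS-IRF element. Sall1 was also the gene among the 8 with the most members whose promoter had a strong peak in the 2 WT libraries alone.

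Magi1, with 7 members, all in its introns, had an element in none. Besides the strongest, 2 neighbours at 119 and 120 kb from the TSS had 3.43 and 2.58, and 2.13 and 1.60. Tiam1, an activator of the GTPase Rac, had 7 intronic members, of which 1 held an element. Its strongest (chr16:90042902-90043289) had 4.17 and 3.31, and the others did not pass 1.36 in either library. Macc1 had 6 members, none with an element, and no strong promoter peak in any library. Its strongest had 2.71 and 2.35. Ptprm, a receptor tyrosine phosphatase, had 6 members, 1 with an element, and Bach2, a transcriptional repressor, had 6, of which 2 held one. Smad7, an inhibitor of TGF-beta signalling, had the most, 8 members, 1 of them with an element. Of the 8, 1 lay in the gene and 4 in introns of its neighbour Ctif. Its strongest had 3.19 and 2.17. Setbp1 had 6 members, of which 3 held an element. Close neighbours were counted separately, as 2 Smad7 members 60.2 and 60.4 kb from the TSS and the 2 Magi1 members at 119 and 120 kb. The counts per gene therefore need not be counts of separate sites. Gene length varied widely among these genes, from 16.9 kb at Sall1 and 28.4 kb at Smad7 to 608 kb at Magi1 and 688 kb at Ptprm.

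Of 24 homeostatic microglia genes, 6 had a member in the gene or as its nearest TSS (25%), with 16 members in all, of which 5 held an element. Over all 20780 autosomal protein-coding genes this held for 7.23%, and for 10.2% of the 10123 with a promoter strong in all 4 libraries. The lists were chosen with earlier results known, so these shares are descriptions. Besides Sall1, they included Csf1r and Tgfbr2 with 2 members each, and P2ry13 and Itgam with 1 each. Tgfbr2, a TGF-beta receptor subunit, had an intronic member with GGAAATGAAA at 0.575 and 0.716, and Csf1r, the receptor microglia need for survival, had members at 0.852 and 1.06 and at 0.852 and 0.614. These values lay below those of the 2 strongest Sall1 members in both libraries.

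The macrophage transcription factor list had the largest share of the lists: 17 of 43 genes (39.5%), with 29 members, of which 9 held an element. Endothelial genes followed with 3 of 8 (37.5%). The 29 members of the macrophage list lay between 1.26 kb (Klf2) and 328 kb (Klf4) from the nearest protein-coding TSS. The share of the same genes with a shared distal region is not given here. Batf3 had 4 members, of which 3 lay within a kilobase of each other about 15 kb from its TSS and had 2.11 and 1.55, 1.51 and 1.35, and 0.937 and 0.614. The fourth, with the element shown above, had 1.41 and 1.31. Nfkb1, an NF-kB subunit, had an intronic member with 2.19 and 2.07. Etv6, an ETS family repressor, had 3 intronic members, the strongest with 2.17 and 1.57. Mef2c had 2 members, with 1.85 and 1.10 and with 0.639 and 0.573. Maf, Zeb2, Klf2, Jun, Elf1 and Bcl6 had 2 each, and Runx1, Mef2a, Id2, Irf2, Klf4, Fos and Rel 1 each. Elements were found at Batf3, Maf, Mef2a, Mef2c, Zeb2, Id2, Irf2, Klf4 and Etv6. The Maf and Id2 members with an element both had GGAAGTGAAA.

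Of 28 interferon and antigen presentation genes, 3 had a member (10.7%), which is close to the 10.2% of genes with an open promoter. They were Cd74, the invariant chain, Ifnar2, a type I interferon receptor subunit, and Ifngr1, an interferon gamma receptor subunit. The Cd74 member had 0.575 and 0.675 with GGAAAAGAAA, and the Ifnar2 member 0.554 and 0.532 with GGAACTGAAA. Innate sensing genes had 4 of 26 (Tifa, Ccl5, Il10ra and Ptgs1) with an element in 0 of 6 members. Lysosome and phagocytosis genes had 3 of 24, Lipa and Cd36 among them, with an element in 0 of 4 members. Cd36, a scavenger receptor, had 2.77 and 1.64. The disease-associated microglia list had 1 of 19, Cd9, a tetraspanin, whose intronic member had 2.98 and 2.21 and whose second member had 1.75 and 1.04.

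Shares above that of all protein-coding genes were not limited to lists of microglial and macrophage genes. Endothelial genes had 3 of 8 (37.5%; Pecam1, Flt1 and Cdh5) with 5 members, and astrocyte genes 2 of 8 (25%; Slc1a2 and Slc1a3) with 2 members, the same share as homeostatic microglia genes. The monocyte (Plac8), border macrophage (Cd163) and neuron (Syt1, with 3 members) lists each had 1 of 8 (12.5%). All 5 shares lay above the 7.23% of all protein-coding genes. Each rests on 8 genes, where 1 gene with a member gives 12.5% and so passes 7.23% by construction. Neutrophil, B or T cell and oligodendrocyte genes had 0. The Syt1 members lay 126 to 286 kb from its TSS, and the strongest had 2.73 and 1.82. The Plac8 member, with GGAACTGAAA, had 1.49 and 1.12, and the Cd163 member, with GGAAATGAAA, 0.895 and 0.920. At both, the nearest TSS had no listed row in any library, although another TSS of Cd163 had a strong peak in both IRF8KO libraries.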

How the data were processed

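Peak lists of 4 ATAC-seq libraries (WT and IRF8KO, 2 each by the labels) were used. Per the file headers, each list came from its own MACS 2.1.1.20160309 run by the authors, with a p cutoff of 0.01, no control sample, and cut sites moved by -37 bp and extended to 73 bp. Per the submitters' processing notes, Bowtie2 and the mm10 build (GRCm38) were used. The deposited pileup is an unscaled signal. Fold enrichment was deposited as a ratio to local background, and p and q as −log10 values. The lists give no values outside peaks.

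Pileup was divided by the header's tags and multiplied by 1000000. Strong autosomal peaks (0.5 or more) were merged, and a peak held a region by 1 bp of overlap. GENCODE M21 gave the TSSs, with models typed TEC left out. Motifs were searched within 100 bp of the best summit, with 14 motifs fixed and further words added after the data were seen. The scripts (Python 3.11.15, pysam 0.24.0) were tested on simulated peaks and sequences. Library shares were compared by exact permutation.

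The members, lists and motifs were chosen with earlier results of these data known. Named are the 20 members with the largest lower WT value, the 8 genes nearest to most members, and list genes with a member. A few of these genes and windows are counted but not reported here. Of the lists, 6 genes on chromosome X were not analysed here. Genotype, depth and tag size moved together and cannot be told apart.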

Additional observations from a re-analysis of the deposited data

How the results depend on the processing

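The number of members was set by the thresholds. It was 4016, 830 and 473 at scaled pileups of at least 0.3, 0.75 and 1, and 6023 where weak IRF8KO rows were allowed. Leaving out 1 library in turn gave 2062 to 3131, with 3131 without WT replicate 2 and 2803 without IRF8KO replicate 2. The ETS-IRF share of members was 22.6%, 30.0% and 30.7% at those 3 thresholds and 17.4% with weak IRF8KO rows allowed. It was 21.0% in windows of 50 bp on each side, 34.1% with the cores in either order, and 34.8% without the last base of the motif, an alternative chosen after seeing the data. Leaving out 1 library gave 23.3% to 26.7%. With the same motif forms, all strong distal regions had 7.44% as reported, 15.7% in either order and 13.5% without the last base. The share with a nearest promoter strong in all 4 libraries was 45.2%, 37.0% and 33.6% at the 3 thresholds, 38.0% with weak rows allowed, 37.8% beyond 5 kb, 53.8% where any row counted, and 42.4% to 44.6% with 1 library left out. The difference in library share was positive in all 14 alternatives, from 2.79 to 5.70 percentage points, and 4.12 to 4.54 with 1 library left out. With the replicate number as a replicate block it was 4.33 points (pairs 3.98 and 4.68), with an exact sign-flip p of 0.5, the smallest that 2 pairs allow, and the labels give the pairs no shared source. The causes of these changes were not tested beyond what each setting's construction fixes. Absence of a row is read against each library's own calling limit, and its pileup is unknown.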

Other observations

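A search without a set motif, added after the data were seen, compared every 8-base word (a word and its reverse complement counted as 1) found in at least 2% of member windows with the same word in windows of distal regions strong in all 4 libraries. Words were ordered by the ratio of these shares, with 5 windows added to the shared count. The 8 leading words among all members were AGTGAAAC, GTGAAACT, AATGAAAC, AAGTGAAA, TGAAACTG, TGAAACTA, GAAGTGAA and AAATGAAA, and 7 of them contain the IRF core GAAA. AGTGAAAC was found in 161 of 1823 members (8.83%) and 200 of 10955 shared regions (1.83%), and AAGTGAAA in 15.5% and 3.57%.

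The same kind of word led where no searched IRF motif was found. Of the 1108 members without an ETS-IRF, reversed or ISRE match, GTGAAACT was found in 74 (6.68%) and AGTGAAAC in 82 (7.40%), against 0.952% and 1.10% of 8925 shared regions without a match. At least 1 of the 8 leading words there (GTGAAACT, AGTGAAAC, TGAAACTA, AAGTGATA, AAGTGAAA, TGAAACTG, AATGAAAC and ATGAAACT) was found in 280 of the 1108 members (25.3%), in 5.43% of the shared regions and in 4.39% of 661 IRF8KO-only regions without a match. With these words counted beside the 3 motifs, 995 members (54.6%) and 23.0% of shared regions had a match. The words were picked for this difference and overlap each other, so the shares describe these windows and are not independent support. Of the 20 strongest members, 11 had a motif or such a word.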
